A study of Mus musculus with 9 samples.

Results

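Genes whose promoter carried an H3K27ac peak in mutant forelimb buds and none in wild type (WT) buds were the subject of the analysis. H3K27ac is acetylation of histone H3 at lysine 27, and it was mapped with MicroChIP-seq, an immunoprecipitation method scaled down to little tissue. The tissue was the forelimb bud of the E10.5 mouse embryo, staged at 33 to 34 somites. The genotypes were WT, Shh-/- (the Shh tm1amc null allele) and Shh-/-;Gli3-/- (Shh tm1amc with the Gli3 Xt-J null allele), each with 2 H3K27ac replicates and 1 input. Every immunoprecipitation used the limb buds of 1 embryo of mixed strain background, and both alleles were kept on Swiss Webster stock. The null alleles act in the whole embryo, so all cells of the bud, and all tissues around it, lacked the genes. Each genotype was represented by 1 deposited peak list without values per replicate, so no difference reported here could be weighed against variation among embryos.

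Genes were chosen by the presence or absence of peaks, and this choice fixes the direction of every class. A gene entered when no WT peak touched the window from 2 kb before to 1 kb after any of its transcript starts, while a Shh-/- peak, a Shh-/-;Gli3-/- peak or both did. Of 20807 autosomal protein-coding genes in the annotation (GENCODE M21 basic set, mouse build mm10), 1422 genes (6.83%) met the rule. They fell into 3 classes of 665 genes with a peak in Shh-/- only (3.2% of all genes), 240 genes with a peak in Shh-/-;Gli3-/- only (1.15%) and 517 genes with a peak in both mutants (2.48%). Another 8905 genes had a promoter peak in all 3 lists, 9937 had none in any, and 169 (0.812%) had one in WT only. The absence of a listed peak means that no region passed the peak caller's cutoff, and it does not show that the mark was absent.

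H3K27ac is laid down by the acetyltransferases p300 and CBP and marks promoters and enhancers in use. Sonic hedgehog (SHH), secreted by the posterior margin of the limb bud, prevents the processing of GLI proteins into repressors. In Shh-/- buds GLI3 therefore acts as a repressor throughout the bud, and in Shh-/-;Gli3-/- buds both the signal and its main limb repressor are missing. Most promoters with CpG islands, stretches rich in CG dinucleotides that escape DNA methylation, are acetylated in any cell that uses the gene, whereas promoters poor in CG tend to be used in particular cell types.

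Sequence near the summit of the strongest peaks is shown for 1 or 2 genes of each class, because the classes differed in CG content. Each stretch is the longest part without annotated exons within the 300 bases around the position of the largest statistic, in build mm10 (GRCm38) and on the strand of the gene, with CG dinucleotides in capitals. Nbeal2 and Lrp10, which ranked higher, had too little sequence outside exons and were passed over. The stretches are chr6:87811780-87811875 (minus strand, Rab43), chr10:24926826-24927125 (minus, Arg1), chr4:83020526-83020591 (minus, Frem1), chr14:4182661-4182775 (plus, Gm2974) and chr4:11559014-11559275 (plus, Rad54b). The Rab43 and Frem1 stretches do not hold the maximum itself, at chr6:87811725 and chr4:83020675, and the Rab43 stretch runs past the end of its peak. The Gm2974 stretch holds the maximum of the Shh-/-;Gli3-/- peak and not that of the Shh-/- peak.
Rab43: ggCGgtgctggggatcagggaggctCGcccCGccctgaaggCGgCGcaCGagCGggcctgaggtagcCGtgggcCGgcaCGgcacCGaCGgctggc
Arg1: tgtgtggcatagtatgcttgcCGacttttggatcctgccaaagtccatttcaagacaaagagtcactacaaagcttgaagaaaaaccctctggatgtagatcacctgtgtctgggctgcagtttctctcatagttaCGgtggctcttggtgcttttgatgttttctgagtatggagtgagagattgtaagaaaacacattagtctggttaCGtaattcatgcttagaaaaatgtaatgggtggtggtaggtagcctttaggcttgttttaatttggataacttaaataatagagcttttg
Frem1: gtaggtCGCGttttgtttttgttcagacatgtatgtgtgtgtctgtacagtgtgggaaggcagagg
Gm2974: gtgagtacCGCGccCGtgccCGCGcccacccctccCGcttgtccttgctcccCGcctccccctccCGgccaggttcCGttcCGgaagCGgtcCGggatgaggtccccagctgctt
Rad54b: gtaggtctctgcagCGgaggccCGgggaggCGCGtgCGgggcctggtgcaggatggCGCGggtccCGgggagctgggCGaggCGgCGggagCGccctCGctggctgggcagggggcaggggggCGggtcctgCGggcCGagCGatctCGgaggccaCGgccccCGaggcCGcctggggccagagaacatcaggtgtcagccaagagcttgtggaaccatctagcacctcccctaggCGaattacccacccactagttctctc

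The Rab43 stretch, of the Shh-/- only class, held 12 CG dinucleotides in 96 bases. The Gm2974 and Rad54b stretches, acetylated in both mutants, held 12 in 115 and 22 in 262 bases. The Arg1 and Frem1 stretches, of the Shh-/-;Gli3-/- only class, were poorer, with 3 in 300 and 2 in 66 bases, and 69.7% of the Frem1 stretch was marked as repeat sequence in the assembly. The hexamer GGGCGG, searched on both strands, was found in the Rab43 and Rad54b stretches.

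In the Shh-/- only class the best-ranked peak lay at Sept5, which encodes a septin, a GTP-binding protein of the cytoskeleton. Its peak was 400 bp wide, ranked 1850 in the Shh-/- list and had a log2 fold of 4.62 over the Shh-/- input. The peak lay within the gene (ENSMUSG00000072214.7), with its maximum 164 bp downstream of a transcript start, and no peak of any list lay within 50 kb outside the promoter window. The next genes kept with equal list sizes were Rab43, a small GTPase of the Rab family (rank 2165, log2 fold 4.54), Kif27, a kinesin (rank 3209, 4.26), Tmem101 (rank 3644, 4.17) and Cast, which encodes the calpain inhibitor calpastatin (rank 4026, 4.10). Nanos1, an RNA-binding protein of the Nanos family, followed at rank 4190 with a 550 bp peak of 77.1% GC. The remaining 4 of the first 10 were 6430571L13Rik, A830031A19Rik, B3gnt9 and Rogdi, at ranks 4537 to 5574. The 6430571L13Rik and A830031A19Rik peaks lay near the outer edge of the window, with WT peaks 253 and 346 bp beyond it. At A830031A19Rik a Shh-/- promoter peak overlapped a WT peak outside the window.

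In the Shh-/-;Gli3-/- only class the best-ranked gene was Nbeal2, a BEACH domain protein of platelet granules, at rank 5466 of the Shh-/-;Gli3-/- list. Its 1150 bp peak had its maximum at -2564 bp, upstream of the start, and reached only the edge of the window, and a WT peak lay 339 bp outside it. The Nbeal2 peak itself overlapped a WT peak outside the window, so part of its region was also listed in WT. Arg1 encodes arginase of the urea cycle and had a 1100 bp peak at chr10:24926600-24927699, ranked 5761 with a log2 fold of 3.82, with no WT peak for 56085 bp. Frem1, a protein of the basement membrane, ranked 7205 and had 6 separate Shh-/-;Gli3-/- peaks over its promoter windows. Lbx1 encodes a homeobox factor of the muscle precursors that migrate into the limb, and its 250 bp peak at chr19:45235150-45235399 ranked 8644 (log2 fold 3.39). The other genes of the first 10 were Fam84b, Uchl4, Arhgap29, Cbfa2t3, Tbc1d19 and Sdr42e1, at ranks 9212 to 9962. The Sdr42e1 peak, like that of Nbeal2, overlapped a WT peak outside the window.

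Among genes acetylated in both mutants, the order was taken from the worse of the 2 ranks as a percent of the list. Gm2974 came first, but 81.2% of sampled 31-base words of its Shh-/- peak and 68.8% of those of its Shh-/-;Gli3-/- peak occur more than once in the genome, so reads could come from its copies. Lrp10, of the LDL receptor family, had peaks of 500 bp in Shh-/- (rank 4529) and 600 bp in Shh-/-;Gli3-/- (rank 5952). Rad54b, a helicase-like protein of recombination repair, had peaks of 500 bp (rank 5127) and 350 bp (rank 6233) that started at the same position, chr4:11558900. Cox16, needed to assemble cytochrome c oxidase, ranked 6036 and 4342, but a WT peak lay 74 bp outside its window. A mutant promoter peak of Cox16 also overlapped a WT peak outside the window. Abhd5, a cofactor of lipolysis, Vps4a, an ATPase of the ESCRT machinery, Pcca, a subunit of propionyl-CoA carboxylase, and Stk40 followed, as did Brox and Aida, which are read from opposite strands and shared 1 peak.

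The class counts depended on the sizes of the lists, since the WT list held 25096 peaks, the Shh-/- list 32085 and the Shh-/-;Gli3-/- list 34641. With every list cut to its top 25096 peaks by file rank, 584 genes had a peak in Shh-/- only (2.81%), 181 in Shh-/-;Gli3-/- only (0.87%), 334 in both mutants (1.61%) and 293 in WT only (1.41%). The Shh-/- only class was thus 1.99 times the WT only class with equal numbers, against 3.93 times as deposited. The Shh-/-;Gli3-/- only class went from 1.42 to 0.618 times the WT only class, and so from above to below its mirror. The class of both mutants had 2.57 times the genes of its mirror, WT and Shh-/-, as deposited, and 0.923 times with equal numbers.

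Of the original members, 71.7% (477/665 genes) of the Shh-/- only class kept their class with equal numbers, with a Wilson 95% interval of 68.2 to 75.0%. The share was 57.5% (138/240 genes, 51.2 to 63.6%) for Shh-/-;Gli3-/- only and 64.6% (334/517 genes, 60.4 to 68.6%) for both mutants. Of the 517 genes acetylated in both mutants, 107 then counted as Shh-/- only, 43 as Shh-/-;Gli3-/- only and 33 as without a peak. The cut did not shorten the WT list, so genes of the 2 single-mutant classes kept their class whenever their best peak ranked within 25096. Genes of both mutants needed such a peak in each list. More of the longer Shh-/-;Gli3-/- list was removed, so the shares kept are not compared between classes. Intervals cover counting error over genes and no variation between embryos.

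**Figure D1:**
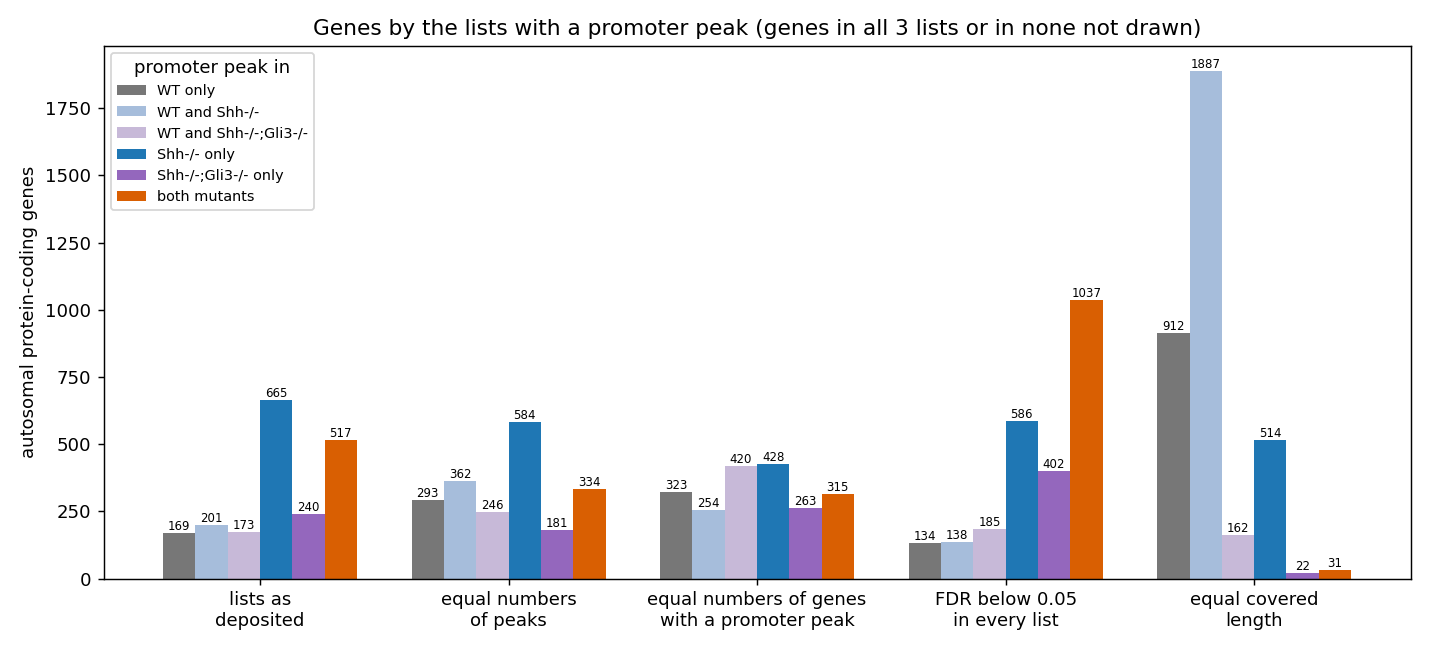
Number of autosomal protein-coding genes (vertical axis) by the lists that hold a promoter peak, for 5 ways of sizing the lists (horizontal axis). The Shh-/- only bar lies between 428 and 665 genes in the 5 settings, whereas the bar for both mutants ranges from 31 to 1037.

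The comparison in the 2 directions showed the same dependence. In the lists as deposited, 1182 of 10288 genes with a Shh-/- promoter peak lacked a WT peak (11.5%), and 342 of 9448 genes with a WT peak lacked a Shh-/- peak (3.62%). With equal numbers the shares were 9.34% and 5.70%. For Shh-/-;Gli3-/- the corresponding shares were 7.70% against 3.92% as deposited, and 5.53% against 6.93% with equal numbers, so the larger share changed sides. When each list was cut to the rank at which it covered 9448 genes, the classes held 428, 263 and 315 genes beside 323 in WT only.

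With lists cut to the same covered length, 514 genes counted as Shh-/- only, 22 as Shh-/-;Gli3-/- only, 31 as both mutants and 912 as WT only. Of these, 245, 6 and 31 genes belonged to the same mutant class in the lists as deposited. An authors' false discovery rate (FDR) below 0.05 in every list moved the counts the other way, to 1037 genes in both mutants and 402 in Shh-/-;Gli3-/- only, with 586 in Shh-/- only. Of the 3 counts, 366, 174 and 425 genes had the same class as deposited. The lists ended at different FDRs, with WT at 0.350, Shh-/- at 0.186 and Shh-/-;Gli3-/- at 0.109, so this filter removed different parts of the 3 lists.

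**Figure D2:**
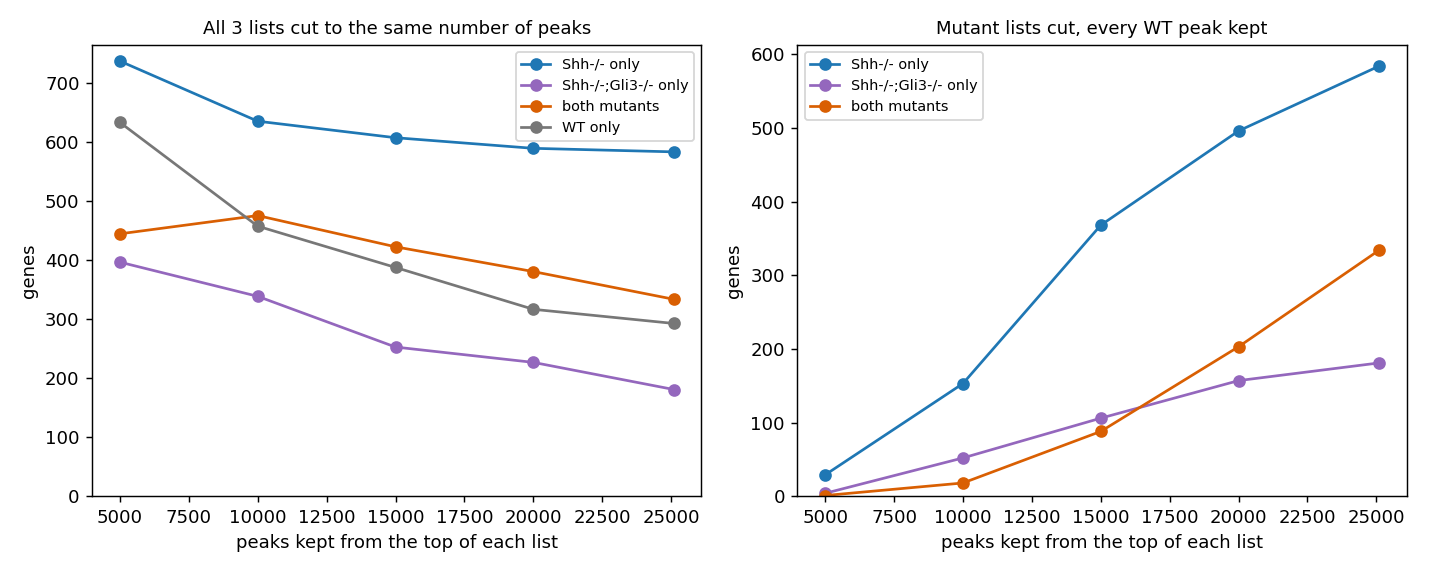
Genes in each class (vertical axis) against the number of peaks kept from the top of the lists (horizontal axis), with all 3 lists cut (left) or only the mutant lists cut (right). With all lists cut, the Shh-/- only count is above the WT only count at each of the 5 sizes, from 738 against 634 genes at 5000 peaks to 584 against 293 at 25096, but these are largely other genes at small sizes, since 9 of the 738 and 2 of the 634 had the same class as deposited.

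Few members stood among the strongest mutant peaks. With every WT peak kept and the mutant lists cut to 10000 peaks, 51 genes of the Shh-/- only class, 10 of Shh-/-;Gli3-/- only and 18 of both mutants still had their class. At 5000 peaks these were 9, 0 and 1 genes. The counts drawn with the full WT list, 153, 52 and 18 genes at 10000 peaks and 29, 4 and 1 at 5000, also hold genes of the class of both mutants that lost 1 of their peaks.

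Members' peaks were narrow and low in their lists, and since peak calling chose the members these values are a description. In the Shh-/- list the best promoter peak had a median width of 200 bp in the Shh-/- only class and 250 bp in the class of both mutants, beside 700 bp for genes acetylated in all 3 genotypes. In the Shh-/-;Gli3-/- list the medians were 150 bp in Shh-/-;Gli3-/- only, 250 bp in both mutants and 800 bp in all 3. The median log2 fold over the Shh-/- input was 2.71, 2.94 and 3.95 in that order, and over the Shh-/-;Gli3-/- input 2.38, 2.55 and 3.94. In WT the 169 mirror genes also had narrow peaks, with a median of 150 bp.

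**Figure D3:**
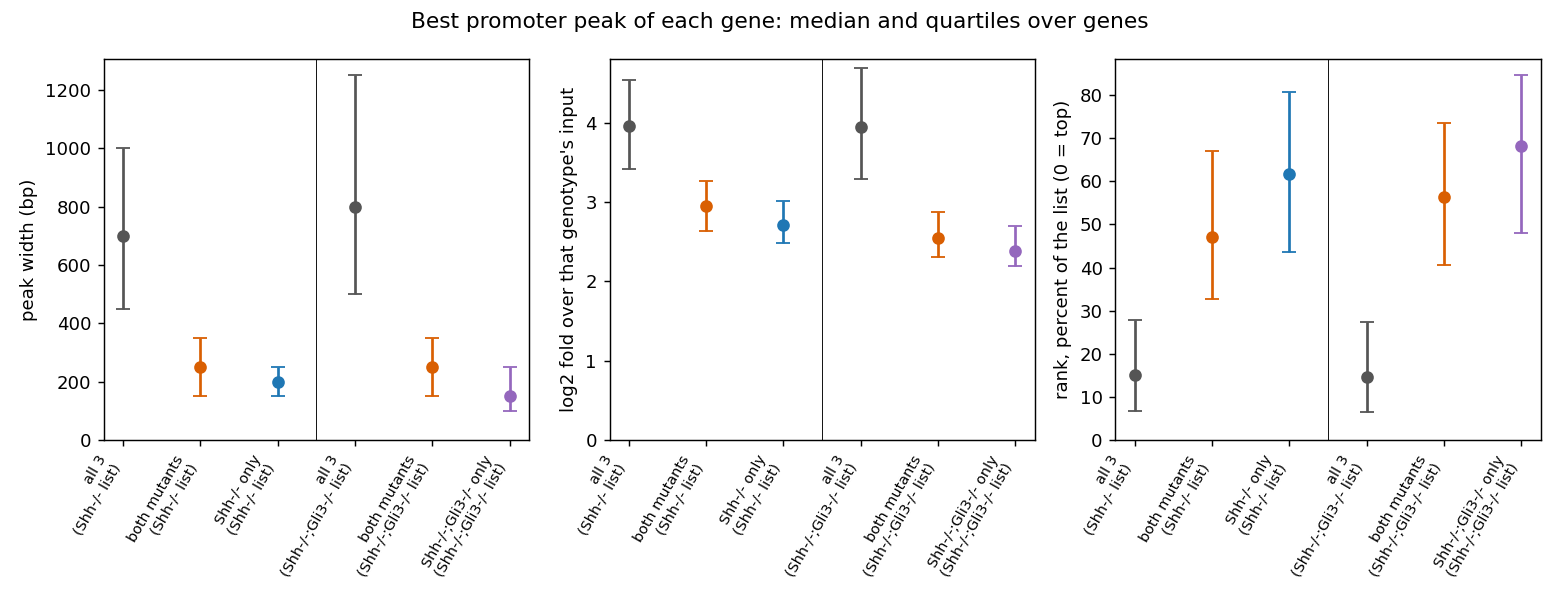
Width in bp, log2 fold over the input of the same genotype, and rank as a percent of the list (vertical axes) of the best promoter peak, as median and quartiles over genes, for the Shh-/- list (left of the line) and the Shh-/-;Gli3-/- list (right). Genes acetylated in all 3 genotypes have the widest and highest peaks in each list, with medians of 700 and 800 bp.

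Widths of 100 bp were found at 23.0% of Shh-/- only genes and 27.1% of Shh-/-;Gli3-/- only genes, and at 12.6% and 12.2% of genes acetylated in both mutants, in the 2 lists. An FDR below 0.05 was listed for 63.9% of the Shh-/- only peaks, 72.5% of the Shh-/-;Gli3-/- only peaks and, for both mutants, 81.0% in Shh-/- and 85.3% in Shh-/-;Gli3-/-. In the class of both mutants, the 2 best peaks overlapped at 349 of 517 genes (67.5%), and their maxima lay a median of 150 bp apart. The Shh-/- peak was wider at 228 genes and the Shh-/-;Gli3-/- peak at 220.

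Most members' peaks lay close to a start, on its downstream side. The maximum lay within 500 bp of a start for 85.4% of Shh-/- only genes and 74.2% of Shh-/-;Gli3-/- only genes, beside 84.4% and 85.4% of genes acetylated in all 3 in the same lists. It lay upstream of the start for 27.5% of Shh-/- only and 35.8% of Shh-/-;Gli3-/- only genes, beside 27.8% and 26.7%. The narrow peaks covered the start itself at 18.5% and 14.6% of these genes, beside 56.0% and 65.9%.

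CG content differed between the classes. The start used was the annotated start nearest to the maximum of the best-ranked peak. For genes without a peak it was the most upstream start, so comparisons with those genes and with all genes mix both rules. The median GC of the 1 kb around the start was 58.7% for Shh-/- only, 54.9% for Shh-/-;Gli3-/- only and 57.5% for both mutants. It was 60.9% for genes acetylated in all 3, 55.2% for WT only, 49.3% for genes without a peak and 55.9% for all genes. A CpG-rich start, with at least 50% GC and an observed to expected CpG ratio of at least 0.6, was present at 51.7% of Shh-/- only genes (47.9 to 55.5%) and 61.3% of genes acetylated in both mutants (57.0 to 65.4%). The share was 39.6% for Shh-/-;Gli3-/- only (33.6 to 45.9%), 34.3% for WT only (27.6 to 41.8%) and 85.5% for all 3. Among members kept with equal numbers the shares were 54.5%, 41.3% and 66.8% in the order Shh-/- only, Shh-/-;Gli3-/- only and both mutants. The interval of Shh-/-;Gli3-/- only did not overlap those of the other 2 classes as deposited. Of all genes 48.8% had a CpG-rich start, inside the interval of Shh-/- only, above that of Shh-/-;Gli3-/- only and below that of both mutants.

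The GC box GGGCGG, counted on both strands from 250 bases upstream to 50 downstream of the start, occurred at 61.2% of Shh-/- only, 48.3% of Shh-/-;Gli3-/- only and 59.4% of both-mutant genes, and at 47.4% of all genes. The letters TATAAA occurred at 6.47%, 7.50% and 5.03%, and at 12.1% of all genes. The GLI core letters GACCACCCA were found in this window at 2 of the 1422 members and 38 of all 20807 genes.

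**Figure D4:**
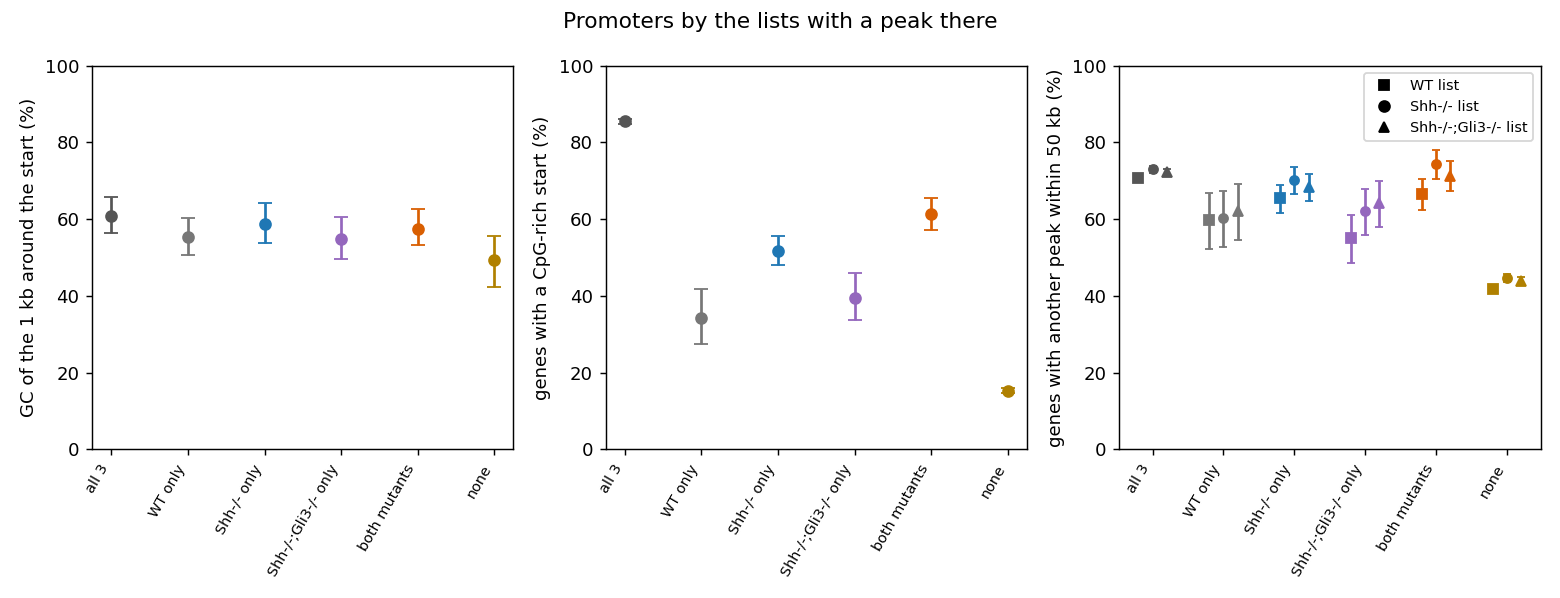
GC of the 1 kb around the start (median and quartiles over genes), share of genes with a CpG-rich start and share with another peak within 50 kb of each list (Wilson 95% intervals), in percent on the vertical axes, by class on the horizontal axis. Genes acetylated in all 3 lead in CpG-rich starts at 85.5%, and Shh-/-;Gli3-/- only has the lowest share of the 3 mutant classes at 39.6%.

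Other peaks within 50 kb, outside the promoter windows of the gene, were common in all 3 lists. A WT peak lay there for 65.4% of Shh-/- only genes (61.7 to 68.9%), 55.0% of Shh-/-;Gli3-/- only genes (48.7 to 61.2%) and 66.5% of genes acetylated in both mutants (62.4 to 70.5%). The share was 70.8% for genes acetylated in all 3, 41.8% for genes without a promoter peak and 56.3% for all genes. Shh-/- peaks lay near 70.2%, 62.1% and 74.5% of the 3 classes, and Shh-/-;Gli3-/- peaks near 68.3%, 64.2% and 71.4%. For all genes these shares were 59.1% and 58.4%. More than 50% of each class, as of all genes, thus had a WT peak in the neighbourhood, and Shh-/-;Gli3-/- only stood near the share of all genes. No peak of any list lay within 50 kb at 20.5%, 25.8% and 19.3% of the 3 classes, beside 31.5% of all genes.

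A WT peak lay within 5 kb of the window at 13.5% of Shh-/- only genes, 14.6% of Shh-/-;Gli3-/- only genes and 14.7% of genes acetylated in both mutants. At 4, 3 and 7 genes of these classes, in the same order, a mutant promoter peak overlapped a WT peak outside the window. A second gene started within 1 kb at 5.71%, 1.67% and 10.8%, beside 23.4% of genes acetylated in all 3 and 12.2% of all genes. The members nearest to the rule's limit were Evc, Spata48 and Tnks1bp1, with WT peaks 6, 7 and 11 bp outside the window, and the nearest genes left out were Scn4b, BC028528 and Erg, whose windows held 5, 6 and 7 bp of a WT peak. The lowest mutant scores among members were 3.02 at Cpne2 and Dnajc12, and the lowest WT scores that kept a gene out were 3.03 at Vrk3 and Zfp473.

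Of the HH pathway list, 1 of 24 genes was a member (4.17%, beside 6.83% of all genes). This was Evc, a ciliary protein that acts with Smoothened, acetylated in both mutants. Its Shh-/- peak, chr5:37338500-37339049, ranked 4013, and its Shh-/-;Gli3-/- peak, chr5:37338050-37338349, ranked 18393, both over 1 kb upstream on the side of Evc2, which had a promoter peak in all 3 lists. With the WT peak 6 bp outside the window, and a mutant promoter peak that overlapped a WT peak there, the class of Evc turned on the window's edge.

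Among 28 posterior limb and SHH target genes, 4 were members (14.3%, beside 6.83% of all genes), and all 4 kept their class with equal numbers. Of the 28 genes, 6 had no promoter peak in any list, so 14.3% is not on the same base as the 13.1% of genes with a peak. Fgf9, a fibroblast growth factor, had a 400 bp peak in Shh-/- only (rank 15197, log2 fold 2.94), with its maximum 678 bp downstream of the start. Osr1, a zinc finger factor of limb and kidney mesenchyme, had a 200 bp peak in Shh-/- only (rank 15768). Prdm1, a zinc finger repressor, had a 300 bp peak in Shh-/-;Gli3-/- only (rank 21391). Cntfr, a cytokine receptor subunit, had peaks of 150 and 200 bp in both mutants, and all sampled words of both peaks (100%) occur elsewhere in the genome, so reads from copies cannot be told apart from its own. Of 13 anterior limb genes, 1 was a member (7.69%), Gata6, a zinc finger factor of the anterior bud, with a 200 bp Shh-/- peak (rank 18399). Of the 13 genes, 10 were acetylated in all 3.

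Of 25 autosomal p53 target and apoptosis genes, 3 were members (12.0%, beside 6.83% of all genes), and 8 had no promoter peak in any list. Pmaip1, which encodes the BH3-only protein NOXA, had a 250 bp peak in Shh-/- only at rank 12037 and kept its class. Btg2 (rank 27142) lost its Shh-/- peak with equal numbers, and Bbc3, which encodes PUMA, kept only its Shh-/-;Gli3-/- peak. Among hypoxia and glycolysis genes Pdk1 was 1 member of 24 (4.17%, Shh-/- only, rank 18409). None of 19 immediate early and heat shock genes was a member. The interferon response list gave 3 of 20 (15.0%, beside 6.83% of all genes), among them Ifit2 in Shh-/- only (rank 19306) and Irf1 in Shh-/-;Gli3-/- only (rank 15627). Of the 20 genes, 15 had no peak in any list. Dazl, an RNA-binding protein of germ cells, was the 1 member of 27 germline genes (3.70%). It had peaks of 300 and 400 bp in the mutants, and the other 26 genes had no peak.

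The labelled tissue was checked with marker lists. Of 12 limb mesenchyme markers, 11 had a promoter peak in all 3 lists, and none of 4 hindlimb markers had one in any list. The remaining mesenchyme marker, Col1a1, was a member, in Shh-/- only.

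Of 13 autosomal erythroid and blood markers, 5 were members (38.5%, beside 6.83% of all genes) and none had a WT peak. This was the highest share among the marker lists as deposited, but not with equal numbers, where 2 of 13 kept their class beside 2 of 10 muscle precursor markers. Ank1, the red cell ankyrin, had a 250 bp peak in Shh-/-;Gli3-/- only at an internal start (rank 12458). Nfe2 (Shh-/-;Gli3-/- only), Klf1 and Tal1 (Shh-/- only), transcription factors of red cell development, had peaks of 100 to 150 bp that fell out with equal numbers. The globin genes Hba-a1, Hbb-bt, Hbb-y, Hba-x and Hbb-bh1 had no promoter peak in any list, so the defining markers of red cells gave no peak. More cells of a type and more acetylation per cell cannot be told apart in whole buds, and the part of blood in these results was not tested.

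Muscle precursor markers were members in Shh-/-;Gli3-/- only, at 3 of 10 genes (30.0%, beside 6.83% of all genes). Beside Lbx1 they included Met, the receptor that muscle precursors need to migrate (100 bp, rank 34282, FDR 0.104). Met fell out with equal numbers. Pax3, Pax7, Myf5, Myod1, Myog and Msc had no promoter peak in any list, and Eya1 had one in all 3. Endothelial markers gave 2 of 18 (11.1%), with Pecam1 (Shh-/-;Gli3-/- only, rank 22942) and Ets1 (both mutants, ranks 6215 and 15907). Erg, Fli1 and Egfl7 had a promoter peak in all 3 lists, and the other 13 endothelial markers had none in any list. Ectoderm and apical ridge markers gave 2 of 17 (11.8%), with Dlx5 (Shh-/- only) and Grhl2 (Shh-/-;Gli3-/- only), and the other 15 had no peak in any list. No macrophage, neural crest or neuronal marker was a member. The part of these cell types in the results was not tested.

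**Figure D5:**
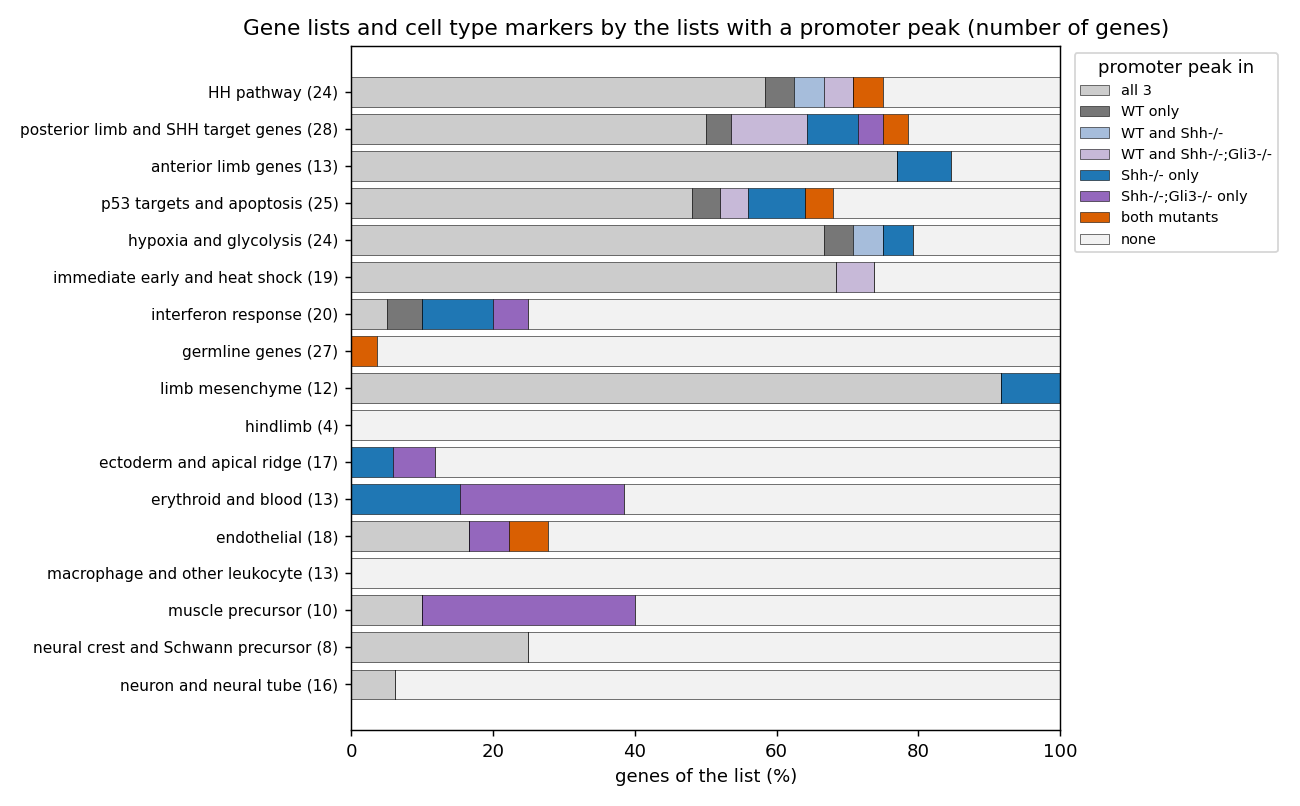
Share of the genes of each list or marker set (horizontal axis, percent; number of autosomal genes in brackets) by the lists that hold a promoter peak. Members are the blue, purple and orange parts, which reach 38.5% of erythroid and blood markers and 30.0% of muscle precursor markers, while limb mesenchyme markers are mostly grey, with a peak in all 3 lists. Members were 6.83% of all genes.

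Families were read from gene symbols, and their member counts are set beside the 13.1% of genes with any promoter peak that were members. Collagens stood at 9 of 22 genes with a peak (40.9%, interval 23.3 to 61.3%). They were Col12a1, Col1a1, Col6a2 and Col6a3 in Shh-/- only, Col22a1 in Shh-/-;Gli3-/- only, and Col1a2, Col27a1, Col2a1 and Col5a1 in both mutants. Col1a2, a chain of the fibrillar collagen of bone and tendon, had an 1800 bp Shh-/- peak (rank 8564, log2 fold 3.46) and a 350 bp Shh-/-;Gli3-/- peak (rank 28864). Col2a1, the collagen of cartilage, ranked 8967 in Shh-/- and 25664 in Shh-/-;Gli3-/-, and Col5a1 ranked 5596 and 20907. Col27a1, which cartilage also uses, had rank 21013 in Shh-/- and 6225 in Shh-/-;Gli3-/-. These ranks come from lists of different length and are not compared. With equal numbers Col1a1, Col22a1, Col27a1 and Col5a1 kept their class, Col1a2 and Col2a1 counted as Shh-/- only, and Col12a1, Col6a2 and Col6a3 were lost.

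Phosphodiesterases, which break down cyclic nucleotides, gave 8 of 15 genes with a peak (53.3%, interval 30.1 to 75.2%), with Pde1c, Pde3a, Pde4a, Pde7b and Pde8a in Shh-/- only, Pde10a in Shh-/-;Gli3-/- only, and Pde9a in both. The eighth, Pde4dip, shares the prefix and encodes a protein that binds a phosphodiesterase. Orphan receptors of the Gpr series gave 7 of 18 and solute carriers 38 of 168 (22.6%, interval 16.9 to 29.5%). Krueppel-like zinc finger factors gave 4 of 14 genes with a peak (28.6%, interval 11.7 to 54.6%), namely Klf1, Klf2, Klf5 and Klf9 in Shh-/- only, and 1 of these 4, Klf5 (rank 15612), was kept with equal numbers. Vps genes of membrane trafficking gave 6 of 35 genes with a peak (17.1%, interval 8.10 to 32.7%), 5 of them in both mutants. The intervals of the Vps and Klf series hold the 13.1% of all. None of the 65 histone, 43 Rpl and 29 Mrps genes with a peak was a member.

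The Zfp series, largely zinc finger proteins, counted 49 members of 324 genes with a peak (15.1%, interval 11.6 to 19.4%), close to the 13.1% of all. Several members stood side by side, in runs singled out after their values were seen. On chromosome 13 these were Zfp455, Zfp458, Zfp457, Zfp953, Zfp874a, Zfp874b and Zfp58. On chromosome 7 they were Zfp112, Zfp114, Zfp108, Zfp93 and Zfp94. Zfp874b had peaks of 200 and 250 bp at ranks 13843 and 12776, and Zfp114 a 250 bp Shh-/- peak at rank 11149, whereas Zfp58 stood at rank 29116.

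The longest run of members lay on chromosome 4 and held Ifnz, which encodes an interferon zeta (limitin), with its neighbours Gm13290, Gm13289, Gm13276, Gm13277, Gm13278, Gm13275, Gm13279, Gm13287 and Gm13288. Their Shh-/- peaks ranked from 8055 at Gm13289 to 20415 at Gm13275, and Ifnz, Gm13277 and Gm13287 also had Shh-/-;Gli3-/- peaks. At Ifnz 90.6% of the sampled words of the Shh-/- peak occur more than once in the genome, and at the other 9 genes 100%. Reads from near-identical copies cannot be assigned here, so neither the number of acetylated copies nor their identity is certain.

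Peaks in such repeated sequence, with more than 50% of their words found again elsewhere, were 4.21% of the Shh-/- only class (2.93 to 6.02%) and 9.58% of Shh-/-;Gli3-/- only (6.47 to 14.0%). In both mutants they were 2.71% of best Shh-/- peaks and 3.48% of best Shh-/-;Gli3-/- peaks, in all 3 genotypes 1.39% and 1.30%, and in WT only 6.51% (3.67 to 11.3%). The Shh-/-;Gli3-/- only genes of this kind included the neighbouring zinc finger genes Zfp971, Zfp972, Zfp973, Zfp965 and Zfp983.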

How the data were processed

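Peak lists of H3K27ac were analysed, 1 per genotype, with 9 libraries behind them (2 H3K27ac replicates and 1 input for each of 3 genotypes). Groups were taken from sample titles, since the genotype field of the labels names every sample wild type. The authors called peaks with CisGenome from reads aligned to mm10. Bowtie2 2.2.5 is named in the submitters' processing notes. In the labels a list belongs to replicate 1 of its genotype, and pooling is not stated. Libraries were amplified with 12 PCR cycles. Their read depth was not used here and no replicate values were analysed.

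The deposited lists give the peak caller's score, by which the authors ranked the peaks, with a minimum of 3.00. The deposited log2 fold is relative to the input of the same genotype, so folds of different lists were not compared. The deposited FDR (a q-value) and the −log10 of the Poisson p-value are also the authors' values, and the latter was not used.

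Peaks were assigned to windows around 39627 transcript starts (GENCODE M21 basic) by an overlap of at least 1 bp, on autosomes, using pandas 2.3.3, numpy 2.4.6 and statsmodels 0.14.6 (Python 3.11.15). A gene's best peak is its best-ranked promoter peak. Sequence features and neighbours were read at the start nearest to its maximum, or at the most upstream start for genes without a peak. GC, CpG and sequences were read from GRCm38 (RefSeq). As a check on copies, words of 31 bases, taken every 10 bases of a best peak, were counted in the assembled chromosomes. Shares have Wilson 95% intervals, and no p-values were computed, because genes are not replicates. The members and lists were chosen with earlier results of these data known.

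Named genes were the first 10 of each class among those kept with equal list sizes, members of the lists, members of families with at least 4 members in a class, and genes nearest to a limit. Sequences were planned as 300 bases and shortened to parts without exons. Some members of these groups and a sequence are not reported here. The overlap step that assigns classes was tested on simulated data with 200 isolated genes of planted pattern, and 100% were recovered. This checked neither the peak calling nor the effect of list length. Of 12 alternatives, 10 were planned and 2 were chosen after seeing the data, namely equal numbers of genes and counting WT peaks that overlap a mutant promoter peak outside the window.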

Additional observations from a re-analysis of the deposited data

How the results depend on the processing

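Of 12 alternatives, 10 kept the order of the 3 classes, with Shh-/- only first and Shh-/-;Gli3-/- only last. With FDR below 0.05 or below 0.01 in every list, both mutants came first, with 1037 and 1255 genes, and Shh-/-;Gli3-/- only held 402 and 521. The Shh-/- only count stayed within 1.5 times of 665 under 11 of the 12, and was 428 with equal numbers of genes. The Shh-/-;Gli3-/- only count stayed so under 9, and was 22 with equal covered length. The count for both mutants stayed so under 6. It was 334 with equal numbers of peaks, 344 with equal numbers of 200 bp windows, 315 with equal numbers of genes and 31 with equal covered length. Shh-/- only exceeded WT only under 10 of the 12, and Shh-/-;Gli3-/- only under 6. With WT peaks up to 5 kb outside the window counted as present, the classes held 575, 205 and 441 genes. Similar counts need not be the same genes, since 265 of the 590 Shh-/- only genes at FDR below 0.01 had that class as deposited. The cause of these shifts was not tested. No paired analysis was possible because the lists hold no replicate values, and for the same reason no replicate could be left out. Read depth, which limits which weak peaks are listed, was not analysed here.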

Other observations

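The share of genes with a promoter peak that belonged to Shh-/- only varied between chromosomes, from 3.44% on chromosome 1 (21 of 611 genes) to 8.85% on chromosome 4 (64 of 723 genes, the interferon zeta run included) and 10.3% on chromosome 19 (39 of 379 genes). Over all autosomes the Shh-/- only share was 6.12%. On chromosome 1 the WT only share was 3.11%, and on chromosome 19 it was 1.58%, beside 1.55% over all autosomes. Members with no assigned gene name, by the form of the symbol, were 6.92% of Shh-/- only, 9.17% of Shh-/-;Gli3-/- only and 6.77% of both mutants. The share was 8.90% of all genes, 4.07% of genes acetylated in all 3 and 13.6% of genes without a peak.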
